A study of Mus musculus with 6 samples.

Results

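The mitochondrial ribosomal protein genes were taken as every gene whose symbol starts with Mrpl or Mrps followed by a digit. There were 76 of them among the 21881 genes listed in each of the 2 tables. Of these, 47 carry an Mrpl symbol (large subunit) and 29 an Mrps symbol (small subunit). The 6 RNA-seq samples are leukemia cells of mouse origin that carry AE9a, which is a shortened form of the AML1-ETO fusion protein. All 3 groups carry the same alleles, Id1 fl/fl with CreER, on the strain C57/B6X129SV. The control group had no treatment named, the second group received CBD at 15 µM for 16 h, and the last received 4-hydroxytamoxifen (4-OHT) at 0.1 µM for 48 h. CBD is called an Id1 inhibitor in the design text, and 4-OHT activates CreER, which deletes DNA between loxP sites. Each group had 2 samples. The labels name no vehicle, list no 4-OHT arm without loxP sites, and do not say whether the samples were separate cultures or how many leukemias or clones they came from.

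Mitochondrial ribosomes are built in the mitochondrial matrix from ribosomal RNA encoded by mitochondrial DNA and from proteins encoded in the nucleus. They translate the few mRNAs of mitochondrial DNA, all of which code for core subunits of the respiratory chain and ATP synthase. Part of their proteins descend from bacterial ribosomal proteins, and the rest were added in mitochondria. Blood-forming and leukemic cells that rely on oxidative phosphorylation are known to depend on this machinery.

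The tables give 1 FPKM (fragments scaled by transcript length and by the number mapped) for each group, so 4 values per gene. These are CBD with a control column of its own and 4-OHT with another control column. No value per library was used here, so no replicate spread, SD or interval could be given and the depth is unknown. A gene is said to have risen or fallen where its q-value, as listed by the authors' deposited table, was under 0.05. Log2 ratios were computed after 0.1 FPKM was added to both values. In bulk RNA, fewer cells of a type and less RNA per cell cannot be told apart.

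Id1 itself was listed at 34.2 FPKM in the CBD control column, 11.95 with CBD, 15.4 in the 4-OHT control column and 0.741 with 4-OHT. The control columns therefore differed for the targeted gene. With 4-OHT its log2 ratio was -4.21, and the authors' deposited table lists its q as 0. With CBD the log2 ratio was -1.51 and the gene did not pass the test, at q = 0.133 in the authors' deposited table. Of 11 genes on a haematopoietic marker list, the summed level was 603 FPKM in the CBD control column, 452 with CBD, 463 in the 4-OHT control column and 450 with 4-OHT. Ptprc, Mpo and Cebpa were under 1 FPKM in all 4 columns. Of the 9 tested with CBD, 2 fell (Myb and Runx1), beside 7.74% of all tested genes. The CBD ratio was positive for 4 of the 9 and negative for 5. Lmo2, at 92.7 FPKM in the CBD control column and 54.0 with CBD, was not among those tested.

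All 76 genes were tested in both tables, and all were at 5 FPKM or more in all 4 columns. In the mm9 coordinates of the tables they lie on 17 chromosomes, with 10 on chromosome 11 and 8 on chromosome 17. Their median level was 52.3 FPKM in the CBD control column, 56.7 with CBD, 65.3 in the 4-OHT control column and 58.4 with 4-OHT. The highest gene was 44.2-fold above the lowest in the CBD control column and 49.7-fold above it in the 4-OHT control column. The rank order of levels was similar between columns: Spearman's rho over the 76 genes was 0.93 between the control columns, 0.94 between CBD and its control and 0.99 between 4-OHT and its control. These are descriptions across genes, which share libraries and are not independent replicates.

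Mrpl12, a protein of the stalk that recruits translation factors, was the most abundant by mean control level, at 202 FPKM in the CBD control column, 222 with CBD, 333 in the 4-OHT control column and 301 with 4-OHT. Mrpl52 followed at 211, 296, 301 and 246 FPKM in the same order of columns. Mrpl20, whose bacterial counterpart is needed to assemble the large subunit, was listed at 172, 207, 299 and 243 FPKM. Mrpl13 was at 222, 232, 208 and 200.3 FPKM, the flattest of these 4 genes. At the other end, Mrpl17 (the lowest) was at 5.01, 8.33, 6.70 and 5.08 FPKM. Mrps25 was at 7.85, 9.01, 11.8 and 11.8 FPKM and Mrpl41 at 7.73, 14.0, 13.6 and 12.6 FPKM. The summed FPKM of Mrpl genes was 1.89 times that of Mrps genes in the CBD control column, 1.90 times with CBD, and 1.87 times in both columns of the 4-OHT table.

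**Figure D1:**
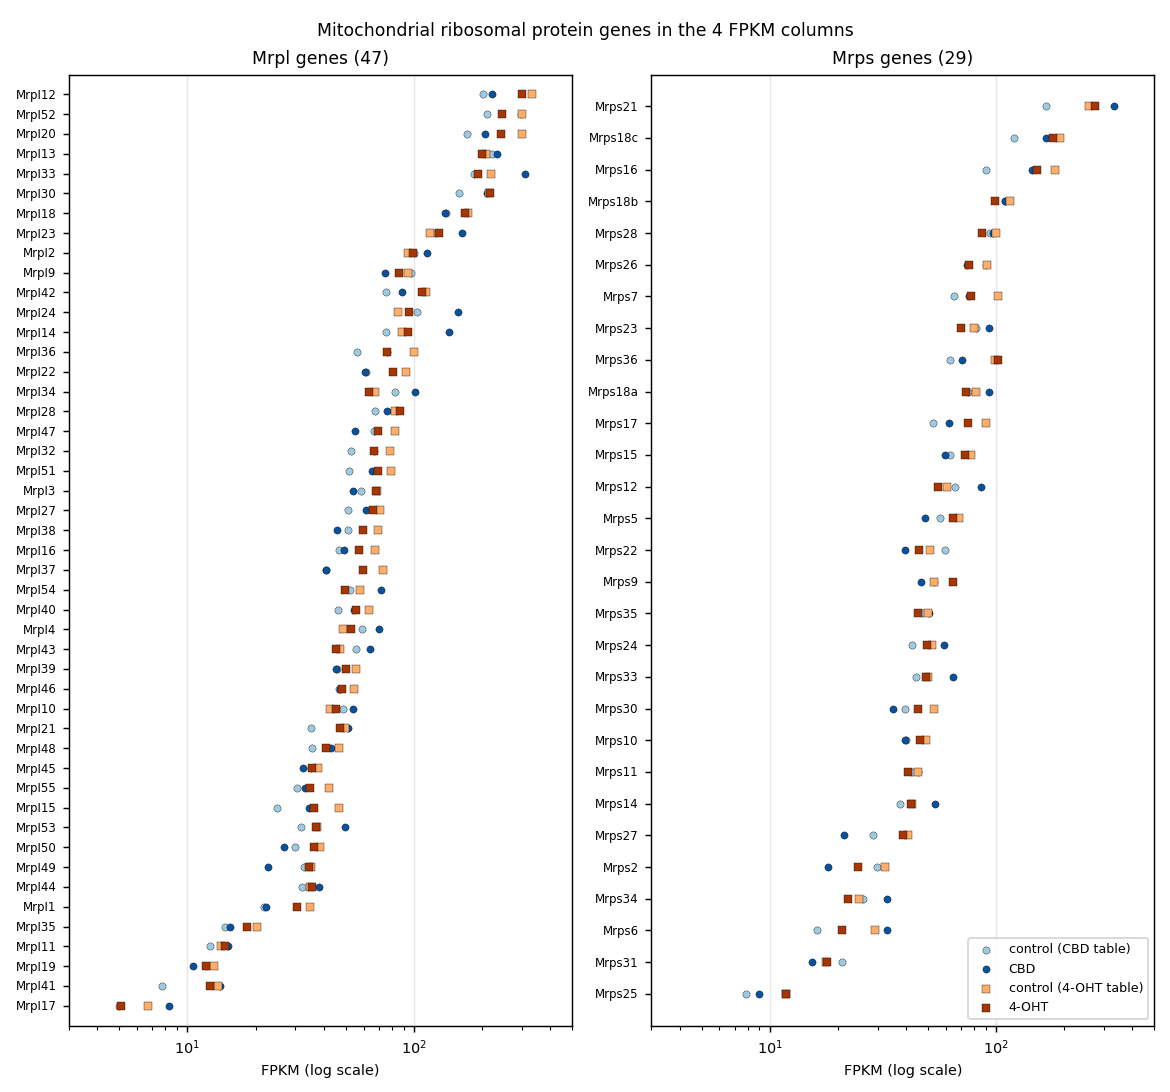
FPKM (log axis) of the 47 Mrpl genes (left) and 29 Mrps genes (right), 1 gene per row in order of level; the 4 marks of a row are its values in the 2 control columns, with CBD and with 4-OHT. Most rows span little of the axis, while levels between genes range from 5.01 FPKM (Mrpl17) to 333 FPKM (Mrpl12).

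Promoters are shown for a selection of genes. These are 3 that rose with CBD (Mrps21, Mrpl14, Mrpl33), 1 of the 2 that rose with 4-OHT (Mrps9) and 2 of those that fell with 4-OHT (Mrps2, Mrps7). Mrps11, which was not called with either treatment, is shown because it faces a second mitochondrial ribosomal protein gene. RefSeq promoters (build GRCm38.p6) were matched for 67 of the 76 genes, and the window searched ran from 200 bases before to 30 bases after the start of the gene. The windows are Mrps21 at chr3:95871485-95871714 (minus strand), Mrpl14 at chr17:45686149-45686378 (plus strand), Mrpl33 at chr5:31613751-31613980 (plus strand), Mrps9 at chr1:42851033-42851262 (plus strand), Mrps2 at chr2:28467866-28468095 (plus strand), Mrps7 at chr11:115603940-115604169 (plus strand) and Mrps11 at chr7:78782931-78783160 (plus strand). Capitals mark matches, on either strand, to CGCANGCGC (bound by NRF1), CCGGAAG (bound by ETS factors such as GABP), AAGATGGCG (bound by YY1) or CACGTG (the E-box).
Mrps21: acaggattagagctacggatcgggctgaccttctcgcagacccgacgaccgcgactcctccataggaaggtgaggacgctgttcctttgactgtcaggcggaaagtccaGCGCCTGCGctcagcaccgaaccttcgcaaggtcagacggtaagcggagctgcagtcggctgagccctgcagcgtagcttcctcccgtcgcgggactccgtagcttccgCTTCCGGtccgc
Mrpl14: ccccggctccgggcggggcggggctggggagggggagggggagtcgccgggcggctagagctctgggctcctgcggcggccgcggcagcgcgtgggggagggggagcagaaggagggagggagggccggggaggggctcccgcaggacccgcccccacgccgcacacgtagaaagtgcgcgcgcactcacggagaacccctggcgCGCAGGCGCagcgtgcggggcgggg
Mrpl33: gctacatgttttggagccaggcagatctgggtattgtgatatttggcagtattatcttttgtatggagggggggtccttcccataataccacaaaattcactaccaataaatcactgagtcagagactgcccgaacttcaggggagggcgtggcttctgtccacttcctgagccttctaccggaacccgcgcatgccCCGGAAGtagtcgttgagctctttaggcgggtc
Mrps9: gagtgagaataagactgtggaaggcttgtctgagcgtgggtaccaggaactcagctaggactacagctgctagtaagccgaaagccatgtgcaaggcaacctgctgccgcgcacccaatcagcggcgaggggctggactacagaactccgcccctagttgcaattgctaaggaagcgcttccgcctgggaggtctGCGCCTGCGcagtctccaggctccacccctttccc
Mrps2: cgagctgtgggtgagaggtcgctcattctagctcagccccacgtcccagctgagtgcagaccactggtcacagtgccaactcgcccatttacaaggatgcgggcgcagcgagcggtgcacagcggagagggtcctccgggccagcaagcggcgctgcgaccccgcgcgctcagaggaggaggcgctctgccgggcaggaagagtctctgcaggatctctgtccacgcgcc
Mrps7: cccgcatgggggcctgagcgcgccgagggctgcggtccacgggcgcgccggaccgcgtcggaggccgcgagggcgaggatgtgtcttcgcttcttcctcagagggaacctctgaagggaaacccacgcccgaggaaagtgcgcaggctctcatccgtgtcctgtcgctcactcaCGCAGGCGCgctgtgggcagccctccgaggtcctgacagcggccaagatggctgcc
Mrps11: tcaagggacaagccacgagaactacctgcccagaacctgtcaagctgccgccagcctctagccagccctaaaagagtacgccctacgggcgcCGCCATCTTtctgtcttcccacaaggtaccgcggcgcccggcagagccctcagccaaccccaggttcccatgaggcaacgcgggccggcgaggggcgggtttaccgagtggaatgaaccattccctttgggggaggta

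The NRF1 letters were present in 16 of the 67 windows (23.9%), against 5.86% of all 27025 promoters and 14.7% of the 6878 whose genes reached 1 FPKM in each control column. The ETS letters were present in 19 (28.4%), against 8.11% and 19.5%. YY1 letters were found in 4 windows (5.97%), against 1.01% and 2.6%, and the E-box in 5 (7.46%), against 6.14% and 9.7%. Among the 27 genes with a window that fell with 4-OHT, 22.2% held the NRF1 letters and 29.6% the ETS letters. Among the other 40, these shares were 25% and 27.5%. In the printed windows Mrps21 holds both an NRF1 and an ETS match, Mrpl33 an ETS match, and Mrps2 none of the 4. The windows of Mrpl24 and Mrps6, not printed, also hold none of the 4. Of the 67 windows, 33 (49.3%) held NRF1, ETS or YY1 letters, beside 33% of the 6878. A match describes letters in this window only.

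The control columns differed for these genes before any treatment was considered. In 61 of 76 genes (80.3%) the CBD control column was lower than the 4-OHT control column, beside 51.2% of 9481 tested genes that reached 1 FPKM in each. The median log2 ratio of the CBD control to the 4-OHT control was -0.29, with a range of -1.02 to 0.29, and it was -0.01 over those 9481 genes. Mrps16, whose bacterial counterpart acts in small-subunit assembly, differed most, at 89.8 FPKM in the CBD control column and 182 FPKM in the 4-OHT control column, with 144 FPKM under CBD and 152 FPKM under 4-OHT. Mrpl15 had a log2 ratio of -0.91, Mrps6 of -0.85 and Mrpl36 of -0.84. In the labels, control sample 1 is described by the name of the CBD comparison and control sample 2 by that of the 4-OHT comparison. How many libraries stand behind each control column is not stated, and a difference between control samples and a difference between tables cannot be told apart. For this reason the treated values of the 76 genes are also set against the other control column. For genes of other lists this is done for some values only.

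**Figure D2:**
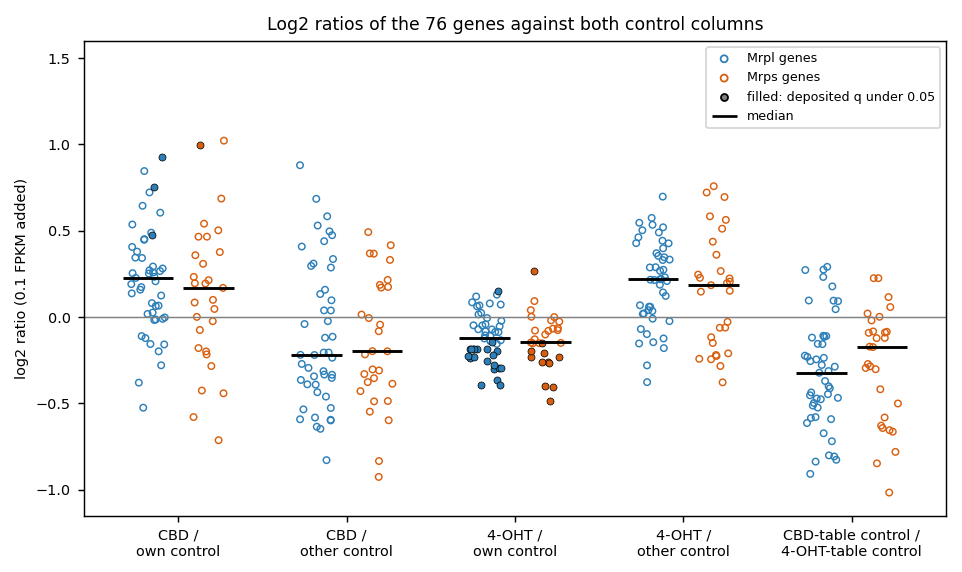
Log2 ratios (0.1 FPKM added) of each treatment to its own and to the other control column, and of the control columns to each other, for Mrpl and Mrps genes; each point is 1 gene, bars are medians, and filled points have a deposited q under 0.05. The 4-OHT median is -0.13 against its own control and 0.21 against the other.

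With CBD, 4 of the 76 genes rose and none fell by the Cuffdiff test of the authors' deposited table. That is 5.26% higher, beside 18.4% of all 13751 tested genes called higher and 7.74% called lower. Among the 9489 tested genes that reached 1 FPKM in each control column, 10.4% were called higher and 11.1% lower. At an unadjusted p under 0.05 in the authors' deposited table, 8 genes were higher and 1 was lower. The median log2 ratio was 0.20 and 54 of the 76 ratios (71.1%) were positive, beside a median of 0.04 and 52.1% positive over the 9481 genes. Against the other control column the median was -0.21 and 27 were positive, beside a median of -0.0008 over the 9481 genes.

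Mrps21 (mm9 chr3:95666575-95674542), a small-subunit protein with a bacterial counterpart, was at 166 FPKM in its control column and 331 FPKM with CBD, against 256 FPKM in the other control column and 273 FPKM with 4-OHT. The CBD value stood above both control columns, with a log2 ratio of 0.997 and q = 0.00351 in the authors' deposited table. Mrpl14 (mm9 chr17:45823321-45835444), which lies at the face where the subunits meet, was at 74.95 FPKM in its control column, 143 FPKM with CBD, 88.8 FPKM in the other control column and 94.3 FPKM with 4-OHT. Its log2 ratio with CBD was 0.93, at q = 0.0115 in the authors' deposited table, and CBD was again above both controls. Mrpl33 rose from 184 to 310 FPKM, with 220 FPKM in the other control column, a log2 ratio of 0.75 and q = 0.0256 in the authors' deposited table. Mrpl15, a large-subunit protein with a bacterial counterpart, rose from 24.9 to 34.5 FPKM (log2 ratio 0.47, q = 0.0164 in the authors' deposited table), but the other control column was at 46.7 FPKM. Against that column its log2 ratio with CBD was -0.44, so the direction for Mrpl15 depends on the control used.

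Mrps6 had a larger ratio than any of these, from 16.2 to 33.1 FPKM (log2 ratio 1.02), and did not pass the test, at q = 0.149 in the authors' deposited table. Mrps2 was at 29.8 FPKM in its control column and 18.2 FPKM with CBD, the lowest ratio (-0.71), at q = 0.116 in the authors' deposited table. The CBD value lay above both control columns in 27 genes (35.5%, beside 40.1% of the 9481 genes) and below both in 22 (28.9%, beside 38%). All 4 genes that rose have a bacterial counterpart, out of 48 such genes. None of the 27 without one passed the test with CBD in either direction. Among the 9489 tested genes that reached 1 FPKM in each control column, 10.4% were called higher. The CBD median log2 ratio was 0.22 with a counterpart and 0.19 without. With 4-OHT, 19 of the 48 and 12 of the 27 fell, beside 18.7% of 9661 tested genes at that level. The differences between these counts were not tested.

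In the CBD column, ratios also declined with transcript length across the table, with Spearman's rho of -0.42 over 5861 genes at 10 FPKM or more and -0.32 over the 76 genes. Among the 38 genes with shorter longest annotated transcripts the median log2 ratio was 0.24 and 32 were positive. For the 38 longer ones the median was 0.07 and 22 were positive. After the median of all genes of like length was subtracted, the median of the 76 genes was -0.02. The longest annotated transcript need not be the one expressed. With the longest protein-coding transcript, a definition tried after the values under the first were seen, the median was -0.08 and rho over the 76 genes was -0.39. The length-adjusted log2 ratio was 0.45 for Mrps21, 0.38 for Mrpl14 and 0.73 for Mrpl15, and for Mrpl33 it was 0.72 under the first definition and 0.20 under the second. The part of length in these ratios was not tested further.

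**Figure D3:**
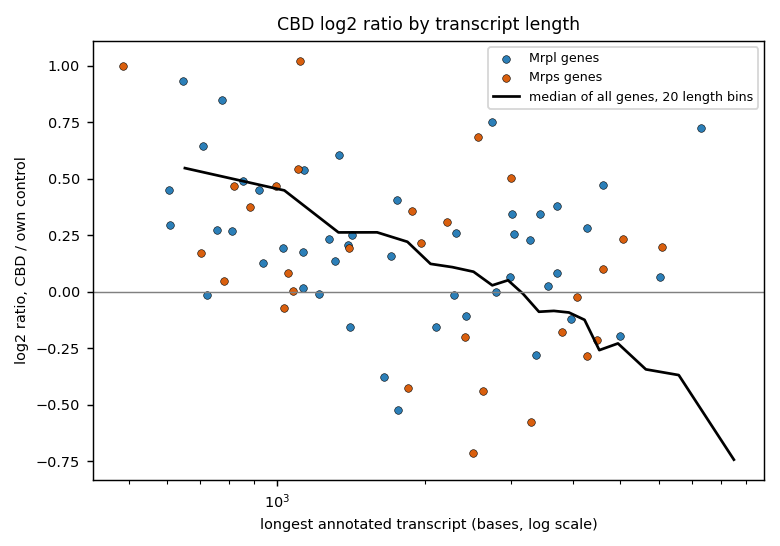
Log2 ratio of CBD to its own control (0.1 FPKM added) against longest annotated transcript in bases (log axis); points are the 76 genes and the line is the median of all genes at 10 FPKM or more in 20 length bins. The median log2 ratio is 0.24 in the 38 shorter genes and 0.07 in the 38 longer.

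Markers of neural cell types also moved in the CBD column, where 18.4% of all tested genes rose and 7.74% fell. Of 37 markers on 3 lists (neuron, oligodendrocyte and astrocyte), 30 rose and none fell with CBD in the authors' deposited table. Their summed level was 175 FPKM in the CBD control column, 745 FPKM with CBD, 163 FPKM in the 4-OHT control column and 166 FPKM with 4-OHT. In the CBD control column 5 of them were listed at 0, and 13 were in the 4-OHT control column. All 3 tested genes of a Y-linked list rose with CBD too, from a summed 0.0393 to 1.80 FPKM over those 3. Their part in the results for the mitochondrial ribosomal protein genes was not tested.

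With 4-OHT, 31 of the 76 genes fell, 2 rose and 43 did not pass the test. That is 40.8% lower and 2.63% higher, beside 16.9% lower and 27.2% higher among all 11232 tested genes. Among the 9661 tested genes that reached 1 FPKM in each control column the shares were 18.7% and 28.1%. The drops were small: the 31 genes lost between 9.57% and 28.7% of their level, with a median of 15.0%, and none of the 76 changed 2-fold. The median log2 ratio over all 76 was -0.13, beside 0.04 over the 9481 genes that reached 1 FPKM in each control column and were tested in both tables. The 31 were 20 of the 47 Mrpl genes and 11 of the 29 Mrps genes.

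The fall was relative to the control column of the same table. In 29 of the 31 genes that control column was the higher of the controls. Of the 76 genes, 7 both fell and had a 4-OHT value below both control columns (9.21%, beside 6.67% of the 9661 genes): Mrpl54, Mrps2, Mrps18b, Mrps22, Mrps23, Mrps26 and Mrps28. The other 24 were at or above the CBD control column. Counting all 76 genes whether called or not, 17 were below both columns (22.4%, beside 17.4%) and 49 lay between them (64.5%, beside 53.5%). Against the other control column the median log2 ratio was 0.21, opposite in sign, and 54 of the 76 were positive. The median over the 9481 genes was 0.06 against that column.

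Mrps6 fell most, from 29.3 to 20.9 FPKM (log2 ratio -0.49, q = 4.3e-06 in the authors' deposited table), while the other control column was at 16.2 FPKM. Its table entry shares a locus with Slc5a3. Mrps2 (mm9 chr2:28323586-28326697), a small-subunit protein with a bacterial counterpart, fell from 32.4 to 24.5 FPKM (log2 ratio -0.40, q = 6.24e-11 in the authors' deposited table). With 29.8 FPKM in the other control column and 18.2 FPKM under CBD, Mrps2 was lower with both treatments than in both control columns. Mrps7, which in bacteria sits in the head of the small subunit, fell from 102 to 77.3 FPKM (log2 ratio -0.40, q = 8.89e-10 in the authors' deposited table), and the other control column was at 65.2 FPKM.

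Mrpl36 fell from 100.2 to 76.2 FPKM (log2 ratio -0.39, q = 1.19e-08 in the authors' deposited table), with 56.0 FPKM in the other control column and 76.4 FPKM under CBD. Mrpl17 fell from 6.70 to 5.08 FPKM (log2 ratio -0.39, q = 1.37e-07 in the authors' deposited table), level with 5.01 FPKM in the other control column. Mrpl15 fell from 46.7 to 36.3 FPKM (log2 ratio -0.36, q = 6.14e-15 in the authors' deposited table). Mrpl15 and Mrpl33 were the 2 genes that fell with 4-OHT and rose with CBD, each against the control column of that table. The 4 values of Mrpl15 lay between 24.9 and 46.7 FPKM. Mrpl33 fell with 4-OHT from 220 to 192 FPKM (log2 ratio -0.20, q = 0.0091 in the authors' deposited table), and its CBD control column was at 184 FPKM. The smallest falls were in Mrpl12, from 333 to 301 FPKM (log2 ratio -0.145), and Mrps22, from 50.9 to 45.7 FPKM (log2 ratio -0.153). Next came Mrpl1, from 34.8 to 30.6 FPKM, and Mrpl46, from 54.5 to 48.0 FPKM.

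The 2 genes that rose were Mrps9 and Mrpl24. Mrps9 (mm9 chr1:42908078-42962528), whose bacterial counterpart reaches toward the tRNA in the decoding region, rose from 53.3 to 64.2 FPKM (log2 ratio 0.27, q = 0.000116 in the authors' deposited table). The other control column was at 53.4 FPKM, so 4-OHT was above both, and CBD was at 46.5 FPKM. Mrpl24 rose from 85.5 to 94.9 FPKM (log2 ratio 0.15, q = 0.0429 in the authors' deposited table) but was at 103 FPKM in the other control column, and its entry shares a locus with BC023814.

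**Figure D4:**
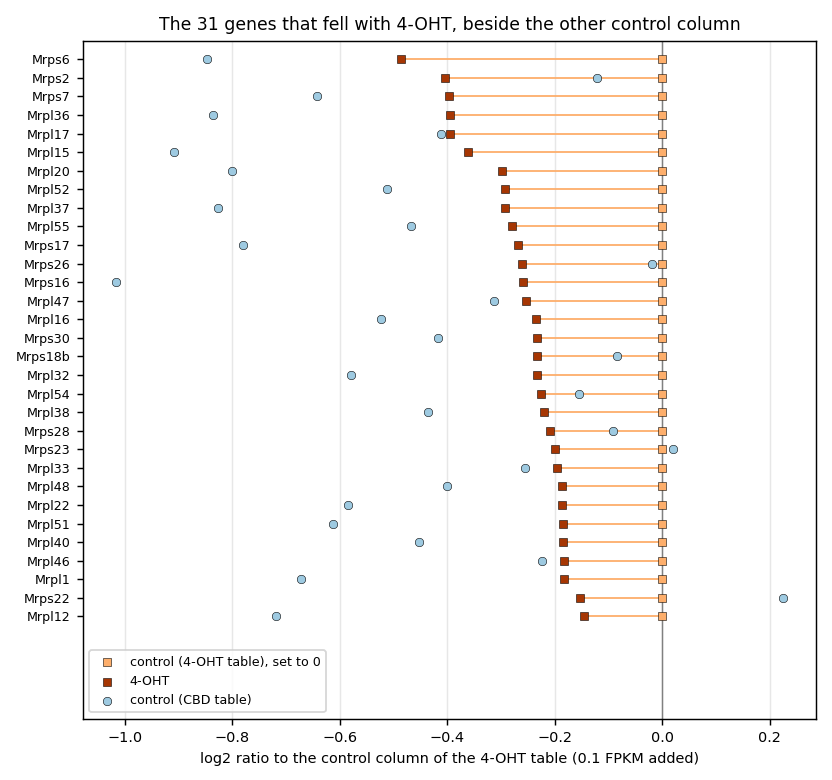
Log2 ratio to the 4-OHT control column (0.1 FPKM added) for the 31 genes that fell with 4-OHT, 1 gene per row; squares are the 4-OHT value and its own control, which is set to 0, and circles are the other control column. In 24 of the 31 the other control column lies at or below the 4-OHT value.

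Both treatments lay below both control columns in 5 genes (Mrps2, Mrps22, Mrps26, Mrpl9 and Mrpl19) and above both in 5 (Mrps21, Mrpl14, Mrpl23, Mrpl11 and Mrpl44). Each count is 6.58% of the 76 genes, beside 6.76% of the 9481 genes below both and 11.8% above both, so neither share stands above that of the table. Mrps22, added in mitochondria, was at 59.5 FPKM in the CBD control column, 39.8 with CBD, 50.9 in the 4-OHT control column and 45.7 with 4-OHT. Mrps26 was at 90.1, 74.0, 91.4 and 76.2 FPKM in the same order, and Mrpl9 at 97.2, 74.7, 94.2 and 85.8 FPKM. Among those above both, Mrpl23 was at 126, 163, 118 and 129 FPKM and Mrpl11 at 12.6, 15.1, 14.1 and 14.7 FPKM. Mrpl23 and Mrps36 have named pseudogenes, and how the authors counted reads shared with them is not stated. With CBD none of these 10 genes except Mrps21 and Mrpl14 passed the test. With 4-OHT only Mrps2, Mrps22 and Mrps26 passed it, all as falls, so none of the 10 was called with both treatments.

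Large and small subunit genes had similar medians against the own control columns, and their ranges overlapped. With CBD the median log2 ratio was 0.23 for Mrpl and 0.17 for Mrps genes, and with 4-OHT it was -0.12 and -0.15. The 4-OHT value was below both control columns in 6 of 47 Mrpl and 11 of 29 Mrps genes, beside 17.4% of the 9481 genes. Of these, 1 Mrpl and 6 Mrps genes were called lower, beside 6.67% of the 9661 genes. The median log2 ratio of the CBD control to the 4-OHT control was -0.32 for Mrpl and -0.17 for Mrps genes. These subunit differences were not tested. Mrps30 and Mrps18a sit in the large subunit despite their symbols, and Mrps36 is now assigned to the 2-oxoglutarate dehydrogenase complex. Mrps30 fell with 4-OHT, from 53.0 to 45.1 FPKM (log2 ratio -0.23, q = 0.000941 in the authors' deposited table), and was at 39.7 FPKM in the CBD control column and 35.0 FPKM with CBD. Mrps36 was at 62.6, 70.4, 98.7 and 101.5 FPKM in the CBD control, CBD, 4-OHT control and 4-OHT columns. Of the 3 Mrps18 paralogs, Mrps18b fell with 4-OHT, from 116 to 98.4 FPKM, with 109 FPKM in both columns of the CBD table. Mrps18a was at 81.6 FPKM in its control column and 73.5 FPKM with 4-OHT (q = 0.0531 in the authors' deposited table), and Mrps18c at 191 and 178 FPKM.

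Other genes of mitochondrial translation were counted on 5 lists. Among all tested genes, 27.2% rose and 16.9% fell with 4-OHT, and 18.4% rose and 7.74% fell with CBD. These shares stand beside the list counts below. Together, 10 rose and 24 fell of 72 tested with 4-OHT, at a median log2 ratio of -0.06. Of the 24, 9 were also below the CBD control column, and the median of the 72 against that column was 0.12. With CBD 1 rose and 1 fell of 69, at a median of -0.21, or -0.31 against the other control column. Of 7 mitochondrial ribosomal proteins under other symbols, 4 fell with 4-OHT. Ict1, which frees stalled ribosomes, fell from 56.4 to 39.6 FPKM (q of 2.15e-09 in the authors' deposited table). It was at 34.4 FPKM in the CBD control column, below its 4-OHT value. Aurkaip1 went from 115 to 183 FPKM with CBD and rose, where the authors' deposited table gives q = 0.0348. Among 14 translation factors, 3 fell and 1 rose with 4-OHT. Pdf, which removes the formyl group from new proteins, fell from 25.5 to 20.1 FPKM, with 20.95 FPKM in the CBD control column. The elongation factor gene Gfm1 fell with CBD from 80.4 to 51.8 FPKM, with 98.0 FPKM in the 4-OHT control column.

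Of 21 assembly and rRNA modification genes 8 fell and 3 rose with 4-OHT. Ybey, an endonuclease of RNA processing, fell from 3.10 to 2.12 FPKM, with 1.94 FPKM in the CBD control column. Of 17 mitochondrial aminoacyl-tRNA synthetases 5 fell and 5 rose. Mars2 fell from 17.9 to 13.9 FPKM, with 9.95 FPKM in the CBD control column. Of 13 genes of mitochondrial DNA expression 4 fell and 1 rose. Elac2, which trims tRNA ends, fell from 41.8 to 35.2 FPKM, with 27.4 FPKM in the CBD control column. None of the genes tested on these last 3 lists passed the Cuffdiff test with CBD. Among 10 regulators of mitochondrial biogenesis, 4 fell with CBD, including Pprc1 from 24.2 to 8.87 FPKM and the transcription factor Nrf1 from 23.1 to 14.8 FPKM, and 1 rose. Gabpb2, a subunit gene of GABP, was among those that fell with CBD, from 31.3 to 11.96 FPKM. With 4-OHT, 2 of the 9 tested regulators rose and 1 fell. Yy1 rose from 68.9 to 78.4 FPKM, with 76.6 FPKM in the CBD control column. Gabpb2 rose from 23.7 to 25.5 FPKM, which is below its 31.3 FPKM in the CBD control column. Myc fell from 154 to 138 FPKM, with 93.5 FPKM in the CBD control column.

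Genes of other large complexes were counted in the same columns, where 27.2% of all tested genes rose and 16.9% fell with 4-OHT. The shares of all tested genes with CBD were 18.4% higher and 7.74% lower. Of the cytosolic ribosomal protein genes tested, 3 of 79 rose and none fell with CBD, and 29 rose and 2 fell of 78 with 4-OHT. Their median log2 ratio was 0.65 with CBD and 0.11 with 4-OHT. Of the Nduf genes for complex I subunits, 6 of 35 rose and none fell with CBD, and 8 rose and 3 fell of 36 with 4-OHT, at medians of 0.48 and 0.04. Against the other control column the medians with CBD and 4-OHT were 0.93 and -0.21 for the cytosolic genes and 0.31 and 0.14 for the Nduf genes. The control columns differed by a median log2 ratio of 0.30 for the cytosolic genes and -0.06 for the Nduf genes. After the median of all genes of like length was subtracted, the CBD medians were 0.28 for the cytosolic and 0.05 for the Nduf genes. For the 76 genes that median was -0.02. The median longest transcripts were 1059, 1025.5 and 1806.5 bases in the same order. With 1 value per group, the differences between these lists were not tested.

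**Figure D5:**
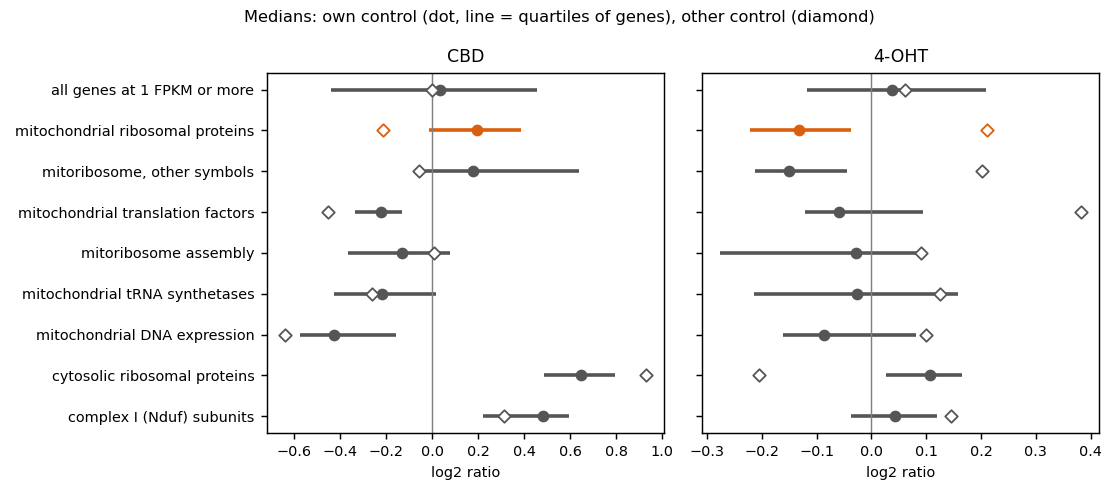
Median log2 ratio (0.1 FPKM added) of each gene list with CBD (left) and 4-OHT (right); dots are medians against the own control column with lines from the lower to the upper quartile of genes, and diamonds are medians against the other control column. With 4-OHT the mitochondrial ribosomal protein genes go from -0.13 to 0.21 between the controls and the cytosolic ones from 0.11 to -0.21.

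Genes that start close to these genes on the opposite strand were also examined. Of the 67 genes with a promoter, 24 (35.8%) had such a neighbour within 1000 bases, beside 10.5% of all promoters and 19.1% of those of genes at 1 FPKM or more. The median distance was 136 bases. Of 22 tested partners, 5 rose and 2 fell with 4-OHT, beside 27.2% higher and 16.9% lower among all tested genes. With CBD 1 rose and 2 fell, beside 18.4% and 7.74%. The partners include Mrpl46 and Mrps11, which face each other, and Mrpl46 is among those that fell with 4-OHT. For the 8 tested partners of genes that fell with 4-OHT, 1 fell and 1 rose. Mrpl46 and Mrps11 start 42 bases apart, and the printed Mrps11 window holds the YY1 match.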

How the data were processed

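RNA from 6 samples of mouse AE9a leukemia cells was sequenced from standard Illumina libraries, per the labels' protocols. Reads were aligned with Bowtie 0.12.2 to mm9 and compared with Cuffdiff, per the submitters' processing notes. The Cuffdiff version, its settings and its annotation were not given in the sources used here. The deposited FPKM values are 1 per group in each of 2 tables, and read counts and library totals were not used here, so the depth is unknown. The p-value and q-value columns are those the authors deposited.

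Log2 ratios were computed with 0.1 FPKM added (Python 3.11.15, pandas 2.3.3). The deposited log2 ratios were not used for results. Genes with status OK are called tested, and q under 0.05 is the call. The computation was tested on simulated data. Named genes are those called with CBD, the 6 highest and 6 lowest log2 ratios among the 33 called with 4-OHT (2 of which rose), the 4 most and 3 least abundant, the 4 whose control columns differ most, those on 1 side of both controls with both treatments, members whose place differs from their symbol, the 3 Mrps18 paralogs and, of each other list, up to 3 called genes per table. Members and lists were chosen with earlier results of these data known. Transcript lengths are from GENCODE, first the longest transcript of any type, as in earlier work on these tables, and then, after those values were seen, the longest protein-coding transcript. Both are reported. Promoters are from RefSeq, build GRCm38.p6.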

Additional observations from a re-analysis of the deposited data

How the results depend on the processing

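The tables hold 1 value per group, so replicates could not be left out and the counts below rest on the authors' test alone. No paired analysis was possible because each column holds 1 value for a group and carries no replicate number. With the other control column the CBD median log2 ratio went from 0.195 to -0.211, the 4-OHT median from -0.131 to 0.212, the CBD difference of large minus small subunit medians from 0.0579 to -0.0206 and the 4-OHT difference from 0.0232 to 0.0345. Requiring the same side of the other control column left 7 of 31 lower and 1 of 2 higher genes with 4-OHT. At q under 0.01, 1 gene was higher with CBD and 1 with 4-OHT. With columns scaled to a common median the medians were 0.268 for CBD, -0.177 for 4-OHT and -0.329, from -0.286, for the control columns. With the length trend removed they were -0.0246 for CBD and -0.151 for 4-OHT, with subunit differences of 0.0072 and 0.0079. The protein-coding length definition, added after those values were seen, gave -0.0791 and -0.157, with 0.0168 and 0.0084. With subunits assigned by structure the differences were 0.0798 and 0.0037, and a pseudocount of 1 FPKM gave 0.0287 for 4-OHT. Without the 9 genes that share a locus, an alternative chosen after seeing the data, the 4-OHT median was -0.145, the differences were 0.0729 and 0.0093, and 1 gene was higher with 4-OHT. The cause was not tested. The other 29 values under alternatives kept their direction and size class, and no gene was called lower with CBD under any of the settings run.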
